A study of Mus musculus with 37 samples.

Results

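The products of the genes described here carry fatty acids into the liver cell and activate them with coenzyme A. They are Cd36, 3 fatty acid transport proteins (Slc27a1, Slc27a2 and Slc27a4), 4 long-chain acyl-CoA synthetases (Acsl1, Acsl3, Acsl4 and Acsl5) and 2 medium-chain acyl-CoA synthetases (Acsm1 and Acsm3). All probes listed under these 10 symbols were taken, which gave 17 probes of the 30146 in the table, and 10 of its 21450 gene symbols. A low-count filter kept 16 of the 17 probes and at least 1 probe of each gene.

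Liver RNA was measured with TempO-Seq, an assay in which pairs of short DNA probes are ligated on their target transcript, amplified and counted. The samples were sections of formalin-fixed, paraffin-embedded liver from 37 wild-type CD1 mice, the outbred stock Crl:CD1(ICR). Mice received HFPO-DA (hexafluoropropylene oxide dimer acid, a short-chain perfluoroalkyl ether acid, given as its ammonium salt) by daily gavage at 1 of 3 doses (5, 0.5 and 0.1 mg/kg bw/day), and controls received the vehicle, deionized water. In order of dose from the vehicle, there were 5, 5, 5 and 4 males and 5, 5, 4 and 4 females.

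At the first dose males were about 6 weeks old and females about 11 weeks. Males had 84 to 85 doses in all, over 70 days without mating and the 14 days in which mice were mated. Females had 53 to 65 doses. Their premating period was 14 days long, and dosing went on through gestation and nursing, up to lactation day 20 or 21. Sex, lactation, age and number of doses therefore cannot be told apart in any comparison of males with females. Whole sections were assayed, so that fewer cells of a type and less RNA per cell cannot be told apart either.

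Long-chain fatty acids cross the plasma membrane with the help of CD36, a scavenger receptor that binds fatty acids and oxidized lipoproteins, and of the fatty acid transport proteins, which also have acyl-CoA synthetase activity toward long and very long chains. Inside the cell, acyl-CoA synthetases join the fatty acid to coenzyme A, a step that precedes both β-oxidation and its esterification into triglycerides and phospholipids. Acsl and Acsm enzymes differ in the chain length they accept and in the membrane or compartment they occupy. Several of the genes are textbook targets in liver of the fatty acid receptor PPARα, which binds DNA with RXR at a pair of AGGTCA sequences spaced by a single base.

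Cd36, Slc27a1 and Acsl1 were the genes whose most abundant probe rose at 5 mg/kg in both sexes and at 0.5 mg/kg in males, and the sequences before their start sites are shown for that reason. They were taken from RefSeq (GRCm38.p6), cover the 250 bases before a start site, and run 5′ to 3′ on the strand of the gene. Slc27a1 has 3 such windows in the table and Acsl1 has 2, and the window farthest upstream is shown. Capitals mark the stretch of the Cd36 window that matches AGGTCANAGGTCA on either strand with at most 2 mismatches among its 12 fixed bases.
Cd36, chr5:17835897-17836146, minus strand: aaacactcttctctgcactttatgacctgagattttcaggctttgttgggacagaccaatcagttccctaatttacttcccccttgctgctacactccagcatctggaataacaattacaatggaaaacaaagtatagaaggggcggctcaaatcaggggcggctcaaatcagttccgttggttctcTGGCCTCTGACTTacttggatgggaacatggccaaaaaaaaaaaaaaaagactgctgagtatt
Slc27a1, chr8:71568621-71568870, plus strand: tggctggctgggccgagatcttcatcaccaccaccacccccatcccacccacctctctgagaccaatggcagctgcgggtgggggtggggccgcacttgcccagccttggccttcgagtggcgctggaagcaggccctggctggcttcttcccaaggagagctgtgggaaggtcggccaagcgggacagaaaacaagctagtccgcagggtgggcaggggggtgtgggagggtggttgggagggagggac
Acsl1, chr8:46470787-46471036, plus strand: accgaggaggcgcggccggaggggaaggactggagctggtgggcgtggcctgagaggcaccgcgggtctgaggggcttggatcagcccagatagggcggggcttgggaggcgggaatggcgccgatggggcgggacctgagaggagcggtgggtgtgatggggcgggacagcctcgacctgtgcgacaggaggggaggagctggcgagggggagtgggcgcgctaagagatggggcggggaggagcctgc
The match in Cd36 reads TGGCCTCTGACTT on the strand shown, so that the motif lies on the opposite strand, and its first base is at position -63 from the start site. Of the 13 windows of the 10 genes, each of 250 bases before and 50 after a start, this was the only one with a match. Among all 32851 promoters of the same length in the table, 3.86% held one. No other motif was searched, and a match of letters is a description of the sequence only. The Cd36 window lies within the gene as GENCODE M21 draws it (chromosome 5, 17781690 to 17888801, minus strand), while the Slc27a1 and Acsl1 windows end just before the start of theirs (chromosome 8, 71568882 to 71587302 and 46471037 to 46536051, both plus strand).

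Levels are given as CPM, the counts of a mouse scaled so that its TMM-normalized total is 1000000, and the probe with the most counts of each gene is described unless another is named. Probes differ in efficiency, so levels were compared between groups of mice and not between genes. Total counts were 2101495 to 10548222 in males and 7952605 to 13878254 in females, and 4 males had under 5000000. These were replicates 1 and 3 at 5 mg/kg, replicate 2 at 0.5 mg/kg and replicate 4 at 0.1 mg/kg, and no control. In order of dose from the vehicle, the median totals of males were 8012441, 8699739, 6943646 and 5117935, so depth and dose are partly mixed in males. Of the 7 hepatocyte markers, Alb, Ttr and Cps1 among them, none was at 0 in any group, and their summed level was between 10400 and 22180 CPM. A probe was called where edgeR's quasi-likelihood test gave an adjusted p under 0.10 over all 18570 probes tested, and a gene where at least 1 of its probes was called.

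At 5 mg/kg in males, 6 of the 10 genes rose (Cd36, Slc27a1, Slc27a2, Slc27a4, Acsl1 and Acsl5) and 1 fell (Acsm1), where 5.31% of all 13004 genes tested rose and 10.6% fell. At the same dose in females, 5 of the 10 rose (Cd36, Slc27a1, Slc27a2, Acsl1 and Acsl5), where 2.62% of all genes rose and 2.63% fell. In males at 0.5 mg/kg, 4 genes rose (Cd36, Slc27a1, Slc27a2 and Acsl1), beside 0.477% of all genes that rose and 0.338% that fell. None of the 10 was called in females at 0.5 mg/kg, where 0.131% of all genes rose and 0.00769% fell, or in either sex at 0.1 mg/kg, where 0% of all genes were called. In these groups, edgeR gave an unadjusted p under 0.05 for 6 of the 16 probes in females at 0.5 mg/kg, 5 in males at 0.1 mg/kg and 3 in females at 0.1 mg/kg, beside 4.33%, 7.14% and 2.38% of all probes in that order. Of the 10 genes, DESeq2 called Acsl1 in females at 0.5 mg/kg, Acsl1 in males at 0.1 mg/kg and 0 genes in females at 0.1 mg/kg, where it called 76, 19 and 3 of all probes.

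The median log2 fold change of the 10 genes was 1.29 in males at 5 mg/kg and 1.04 in females. Acsl4, at 0 in most mice, is counted in these medians. Over all probes the median was -0.12 in males and -0.0094 in females. Relative to that shift of all probes in males, the log2 fold change was 4.65 for Cd36, 1.52 for Acsl5 and -0.81 for Acsm1. All doses of a sex were compared with the same controls, so the comparisons are not independent of each other. The plot of levels by mouse shows each of the 10 genes over the 4 doses. From 0.5 to 5 mg/kg, 4 of the genes rose further in males (Cd36, Slc27a1, Slc27a4 and Acsl5) and 2 fell (Acsm1 and Acsm3), where 4.19% of all genes rose and 7.05% fell. In females 2 rose over that step (Slc27a1 and Acsl1), where 0.715% rose and 0.969% fell. Mean levels increased with every step of dose for 5 genes in males (Cd36, Slc27a1, Slc27a4, Acsl1 and Acsl5) and for 5 in females (Cd36, Slc27a1, Acsl1, Acsl3 and Acsm3). The share of all probes with such an order was not computed. In females the Acsl3 means were low, from 3.13 to 11.2 CPM, and the Acsm3 means at 0.1 and 0.5 mg/kg were 78.2 and 78.6 CPM.

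**Figure D1:**
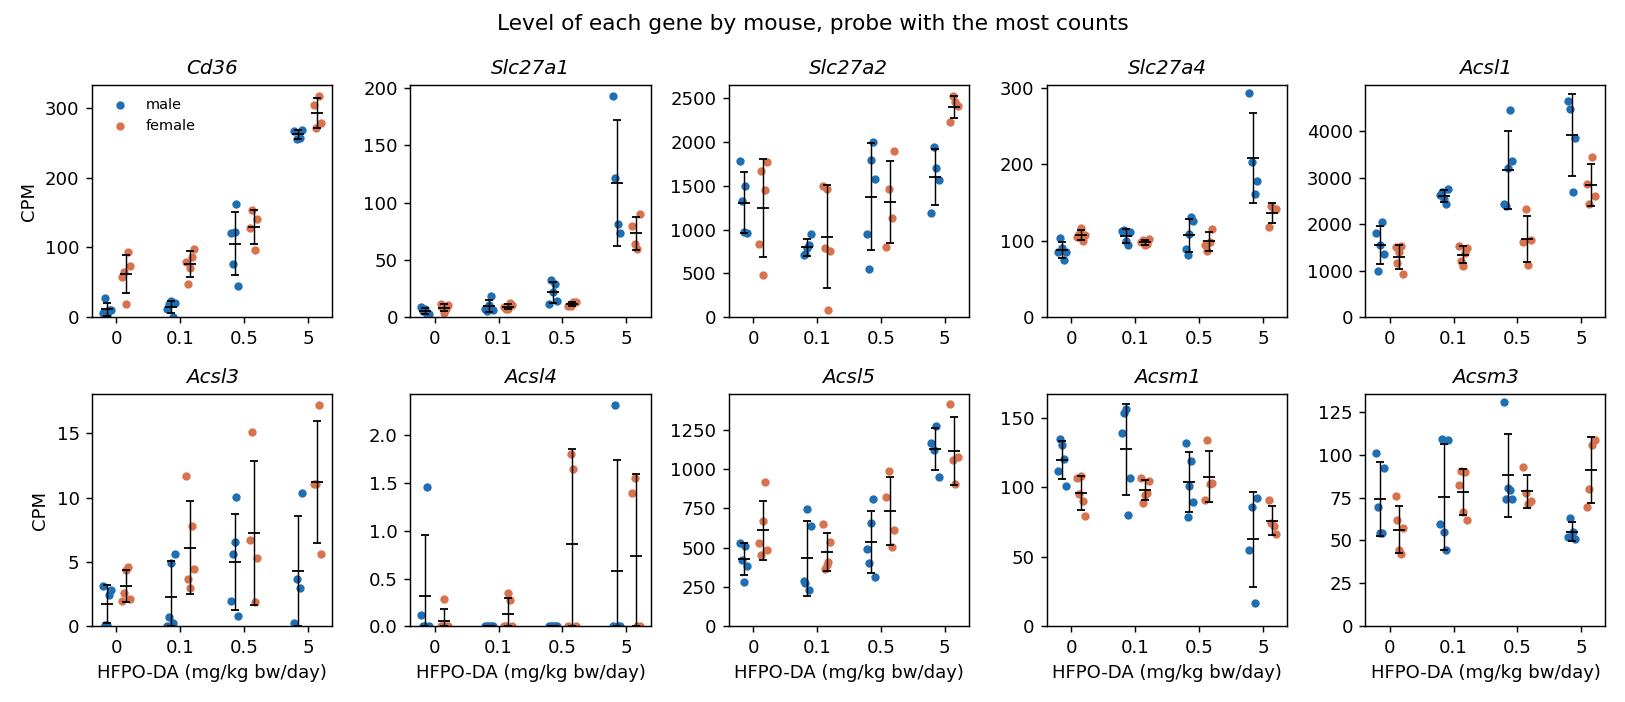
Level of each gene in every mouse (points, CPM on a linear axis that starts at 0) against the dose of HFPO-DA in mg/kg bw/day, with males in blue and females in orange, and with the mean and SD of each group in black. Cd36 in male controls sits between 3.61 and 26.9 CPM and at 5 mg/kg between 256 and 269 CPM, while Acsm1 at 5 mg/kg in males sits below every male control.

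Cd36, the uptake receptor, had the largest log2 fold change in males at 0.5 and 5 mg/kg among the most abundant probes of the 10 genes. In male controls its level was 3.61, 5.52, 10.2, 10.4 and 26.9 CPM, and in males at 5 mg/kg it was 256, 258, 267 and 269 CPM. All males at 5 mg/kg were above all controls, at 262 ± 6.64 CPM (SD, n = 4) against 11.3 ± 9.17 CPM (SD, n = 5). The log2 fold change was 4.53 ± 0.48 (SE), a fold of 23.1, with an adjusted p of 4.7e-09. Of all probes tested, 2.78% had every male at 5 mg/kg above every control.

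At 0.5 mg/kg, Cd36 was at 45.3, 76.6, 121, 122 and 162 CPM in males, again above every control. This was a log2 fold change of 3.22 ± 0.45 (SE), with an adjusted p of 1.4e-05, in a comparison where 0.652% of all probes had every treated male above every control. At 0.1 mg/kg the males spanned 0.477 to 23.2 CPM, within reach of the controls (log2 fold change 0.40 ± 0.43, adjusted p = 1). The step from 0.5 to 5 mg/kg was 1.31 ± 0.43 on the log2 scale (adjusted p = 0.0661). That call was lost when any of 5 of the 9 males was left out (replicates 1, 2 and 5 at 0.5 mg/kg, 1 and 3 at 5 mg/kg), with adjusted p-values of 0.1 to 0.148, and without all males under 5000000 counts (1.18, adjusted p = 0.161).

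In female controls Cd36 was at 19.3, 57.0, 64.6, 73.9 and 93.9 CPM, and at 5 mg/kg at 271, 279, 305 and 317 CPM. The groups did not overlap, as for 4.4% of all probes, and the log2 fold change was 2.25 ± 0.44 (SE; adjusted p = 0.00065). Females at 0.5 mg/kg were at 97.1, 128, 141 and 153 CPM, each above every control, but with an adjusted p of 1 for a log2 fold change of 1.07 ± 0.43. There, 1.52% of all probes had every treated female above every control. The second Cd36 probe, at 0 to 2.21 CPM in male controls and 14.3 to 26.2 CPM in males at 5 mg/kg, moved the same way, and at that dose its log2 fold change was 4.67 ± 0.82 in males and 2.22 ± 0.71 in females.

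Among the vehicle controls, Cd36 was the gene of the 10 that differed between the sexes. Its log2 difference, vehicle males against vehicle females, was -2.45 ± 0.44 (adjusted p = 0.00026) with the abundant probe and -3.08 ± 0.77 (adjusted p = 0.0197) with the other, where 1.48% of all genes were higher in males and 1.69% lower. With the abundant probe, the highest male control (26.9 CPM) lay above the lowest female control (19.3 CPM). The response at 5 mg/kg was larger in males than in females by 2.29 ± 0.62 on the log2 scale, with an adjusted p of 0.106 for that difference. This passed the threshold in 5 of 8 alternatives and missed it in 3. It passed with DESeq2's size factors (0.0718), with the DESeq2 test (0.0645) and with summed probes (0.0741). It also passed without a filter on low counts (0.00302) and without the males under 5000000 counts (0.0446). With 1 mouse left out, the difference missed the threshold in 15 of 18 runs, with adjusted p-values of up to 0.213, and passed in 3. Those 3 runs were without replicate 2 of the male controls (2.88, 0.0128), replicate 3 of the female controls (2.52, 0.0436) or replicate 2 of the males at 5 mg/kg (2.30, 0.0993).

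CD36 is also made by macrophages, capillary endothelium and fat cells, and markers of these cells were read beside it. Of 9 Kupffer cell and macrophage markers, edgeR called 0 in either sex at 5 mg/kg, with 0 at an unadjusted p under 0.05, and DESeq2 called 0. Their summed level was 74.8 to 312 CPM in male controls and 94.6 to 286 CPM in males at 5 mg/kg, where Marco was at 0, and in females it was 158 to 316 CPM in the controls and 165 to 382 CPM at 5 mg/kg. Of 7 endothelial markers, 2 fell in males at 5 mg/kg (Kdr and Oit3), and the list summed to 238 to 343 CPM there against 295 to 421 CPM in male controls. In females at 5 mg/kg it summed to 265 to 341 CPM against 327 to 360 CPM, where edgeR called 0 of the 7, with an unadjusted p under 0.05 for 1 (Stab2, log2 fold change -0.54), and DESeq2 called 0. None of the 5 adipocyte markers passed the low-count filter. They summed to at most 0.669 CPM in male controls, and all of them, Adipoq, Plin1, Lep, Retn and Cfd, were at 0 in the 4 males at 5 mg/kg. In females at 5 mg/kg the adipocyte markers summed to at most 0.350 CPM. At 5 mg/kg, 3 of the 7 hepatocyte markers fell in males (Tat, Cps1 and Asgr1) and 2 in females (Ttr and Asgr1), and their part in the results was not tested. Of the stellate cell (6), cholangiocyte (3), lymphocyte (4) and erythroid (2) markers tested, edgeR called 0 at 5 mg/kg in either sex. An unadjusted p under 0.05 was given to Lrat in males and Alas2 in females, and DESeq2 called Lrat in males.

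Slc27a1 (FATP1), a transport protein best known from muscle and fat, had few counts in control livers and rose at 0.5 and 5 mg/kg in males and at 5 mg/kg in females. Male controls were at 2.70, 3.06, 5.71, 7.36 and 9.13 CPM, males at 0.5 mg/kg at 11.4, 13.8, 21.8, 29.04 and 32.4 CPM, and males at 5 mg/kg at 73.2, 81.0, 122 and 193 CPM. These 3 groups did not overlap, and 2.05% of all probes had every male at 5 mg/kg above every male at 0.5 mg/kg. The log2 fold change was 1.94 ± 0.35 (SE; adjusted p = 0.00196) at 0.5 mg/kg and 4.38 ± 0.39 (adjusted p = 4.8e-11) at 5 mg/kg. At 0.1 mg/kg the males spanned 5.20 to 18.1 CPM and overlapped the controls (0.74 ± 0.35, adjusted p = 0.661).

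Female controls had 3.84 to 11.2 CPM of Slc27a1, and females at 0.5 mg/kg had 9.61 to 13.2 CPM, a range that overlapped the controls. At 5 mg/kg females were at 59.3, 63.9, 79.4 and 90.2 CPM, all above the other females, with a log2 fold change of 3.14 ± 0.36 (SE; adjusted p = 5e-08). At 5 mg/kg both less abundant probes rose as well, with log2 fold changes of 4.84 and 4.39 in males, and 3.74 and 4.49 in females. In males at 0.5 mg/kg neither of them was called (1.17 and 2.54, adjusted p-values of 0.525 and 0.353), and both overlapped the controls, so the call at that dose rests on 1 of the 3 probes. The step from 0.5 to 5 mg/kg was 2.44 ± 0.36 in males and 2.68 ± 0.39 in females (adjusted p-values of 1.1e-05 and 2.1e-05), where 4.09% of all probes had every female at 5 mg/kg above every female at 0.5 mg/kg. A difference between the sexes of 1.25 ± 0.50 at 5 mg/kg had an adjusted p of 0.375.

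Slc27a4 (FATP4), a transport protein with synthetase activity for long and very long chains, was called at 5 mg/kg in males. Its levels there were 161, 178, 203 and 293 CPM, against 75.2, 85.8, 85.8, 91.0 and 104 CPM in male controls. The groups did not overlap, and the log2 fold change was 1.24 ± 0.16 (SE; adjusted p = 3.3e-07). At 0.5 mg/kg the males overlapped the controls, at 81.8 to 131 CPM (0.28 ± 0.15, adjusted p = 0.537). In females, 99.4 to 117 CPM in the controls and 118, 141, 142 and 145 CPM at 5 mg/kg did not overlap, but the log2 fold change of 0.34 ± 0.16 had an adjusted p of 0.349, or 0.0888 with females fitted apart.

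Slc27a4 was the gene of the 10 with a called difference between the sexes in the response to 5 mg/kg. The response was 0.90 ± 0.23 larger in males on the log2 scale, with an adjusted p of 0.0626, where 0.2% of all genes had a larger log2 change in males and 0.584% a smaller one. The adjusted p was 0.125 without the males under 5000000 counts and 0.213 without a filter on low counts. Leaving out any of 7 of the 18 mice also brought it to 0.101 to 0.2 (each of the 4 females at 5 mg/kg, replicate 2 of the female controls, replicate 4 of the male controls and replicate 1 of the males at 5 mg/kg).

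**Figure D2:**
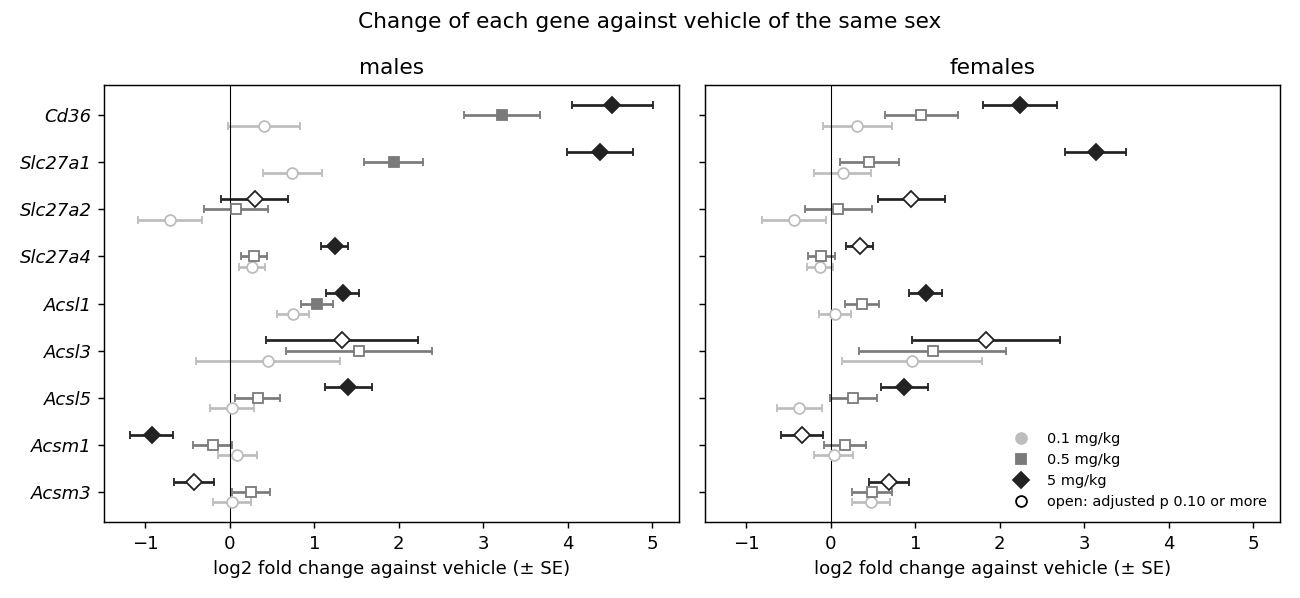
Log2 fold change of each gene against the vehicle controls of its sex (symbols, with the SE as a bar) at each of the 3 doses, in males on the left and females on the right. Filled symbols had an adjusted p under 0.10. Cd36 and Slc27a1 at 5 mg/kg lie farthest to the right in both sexes, Acsm1 is the only filled symbol left of 0, and Acsl4 is left out because it was at 0 in most mice.

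Slc27a2 (FATP2), the abundant liver transport protein that also activates very long chains in peroxisomes, gave different answers from its 3 probes. Its most abundant probe, number 30170, was at 963 to 1778 CPM in male controls and 1184 to 1944 CPM in males at 5 mg/kg, which overlap (log2 fold change 0.29 ± 0.40, adjusted p = 0.744). Probe 65404 was at 104, 144, 182, 210.4 and 276 CPM in male controls and 269, 281, 301 and 323 CPM at 5 mg/kg, and its log2 fold change was 0.68 ± 0.21 (SE; adjusted p = 0.035). At 0.5 mg/kg this probe was at 262 to 372 CPM, a change of 0.85 ± 0.20 (adjusted p = 0.0385). Probe 69141 was not called in males, at 0.42 ± 0.20 (adjusted p = 0.2) at 5 mg/kg and 0.69 ± 0.19 (adjusted p = 0.12) at 0.5 mg/kg, where every male was above every control (342 to 435 CPM against 182 to 304 CPM). The call of Slc27a2 in males rests on probe 65404, whose groups overlapped by a single control. With the counts of all 3 probes summed the adjusted p was 0.792 at 0.5 mg/kg and 0.35 at the highest dose.

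In females at 5 mg/kg the 3 probes gave like log2 fold changes, of 0.95 to 1.02. Probe 30170 was at 482, 833, 1455, 1672 and 1771 CPM in the controls and 2226, 2405, 2455 and 2519.7 CPM at 5 mg/kg. The log2 fold changes were 0.95 ± 0.40 for probe 30170 (adjusted p = 0.259), 0.98 ± 0.21 for probe 65404 (adjusted p = 0.0023) and 1.02 ± 0.20 for probe 69141 (adjusted p = 0.0008). Every female at 5 mg/kg was above every control with each of the 3 probes, and the summed counts gave 0.97 with an adjusted p of 0.0107.

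The probes of Slc27a2 also parted within single mice. Replicate 4 of the females at 0.1 mg/kg had 79.2 CPM on probe 30170, while the other 4 mice of its group had 753 to 1497 CPM. The same mouse had the highest level of its group on probe 65404 (398 CPM, against 261 to 305) and on probe 69141 (463 CPM, against 259 to 357). All 5 males at 0.1 mg/kg were below all 5 male controls on probe 30170, at 705 to 949 CPM (log2 fold change -0.71 ± 0.38, adjusted p = 0.761, where 0.366% of all probes had every treated male below every control). On probe 65404 the same males overlapped the controls, with a mean of 248 CPM against 183 CPM. All females at 0.1 mg/kg were above all female controls on probe 65404, at 261 to 398 CPM against 127 to 236 CPM. That probe was not called there, and the share of all probes with such a separation is not given here.

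The probe whose pattern over the 37 mice was most like that of Slc27a2 probe 30170 was a probe of Ciao1, a factor of cytosolic iron-sulfur protein assembly. As deviations of log2 CPM from the vehicle mean of the same sex, the pair had a Pearson r of 0.833, and the next gene, Scd1, had 0.577. Every other pairing of a Slc27a2 probe with a Ciao1 probe gave r between -0.0602 and 0.244. In the mouse with 79.2 CPM on probe 30170, the Ciao1 probe was at 75.8 CPM, below the other 4 mice of its group (109 to 166 CPM). The genes lie 0.653 Mb apart on chromosome 2 of GRCm38 (Slc27a2 at 126552407 to 126588243, Ciao1 at 127240938 to 127247816). The sequences of the probes were not used here, and what the probes share was not tested.

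**Figure D3:**
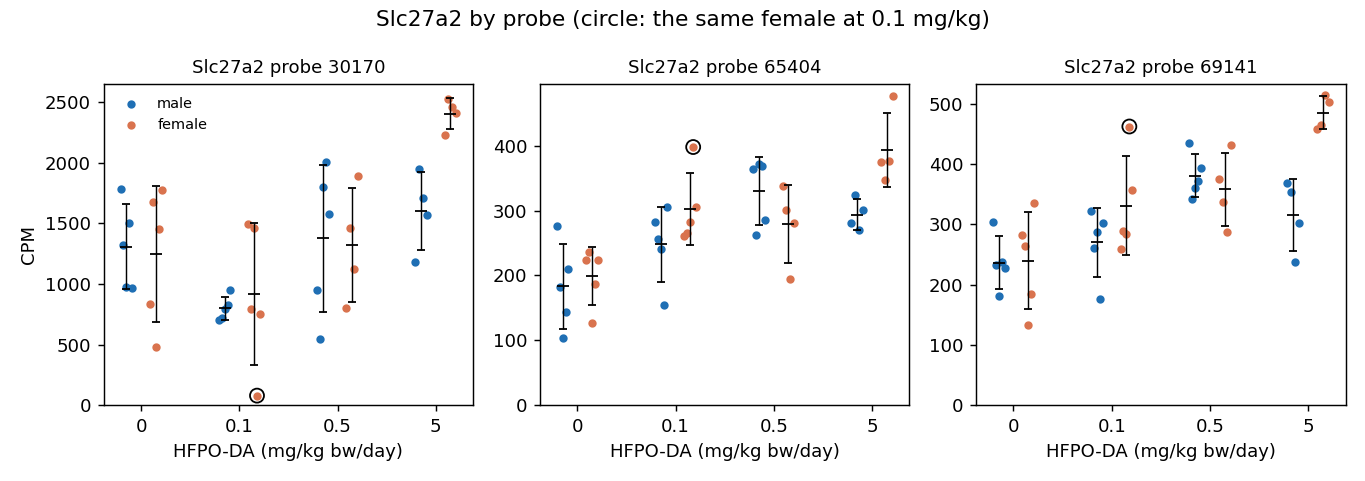
Level of Slc27a2 in every mouse by probe (CPM on linear axes that start at 0) against dose in mg/kg bw/day, males in blue and females in orange, with group mean and SD in black. The circled female at 0.1 mg/kg is at 79.2 CPM on probe 30170 and highest of its group, at 398 and 463 CPM, on the other probes.

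Acsl1, the main long-chain synthetase of liver and a feeder of both β-oxidation and triglyceride synthesis, rose at 0.5 and 5 mg/kg in males and at 5 mg/kg in females. Male controls were at 987, 1355, 1543, 1817 and 2047 CPM, males at 0.5 mg/kg at 2384, 2434, 3199, 3347 and 4447 CPM, and males at 5 mg/kg at 2692, 3839, 4461 and 4652 CPM. Both treated groups lay above the controls and overlapped each other. The log2 fold changes were 1.03 ± 0.19 (SE; adjusted p = 0.00214) and 1.34 ± 0.20 (adjusted p = 5.9e-06), and the step from 0.5 to 5 mg/kg was 0.31 ± 0.20 (adjusted p = 0.398).

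Acsl1 was also the gene of the 10 with the smallest p at 0.1 mg/kg in males. The 5 mice there, at 2422 to 2746 CPM, were all above the controls, as for 0.334% of all probes. Its log2 fold change of 0.75 ± 0.19 (SE) had an unadjusted p of 0.000277 and an adjusted p of 0.513. The adjusted p was 0.0507 with DESeq2 and 0.0591 in edgeR without a filter on low counts. On the less abundant probe the same males had 100.5 to 192 CPM, which overlapped the controls at 55.4 to 127 CPM (0.68 ± 0.21, adjusted p = 0.624).

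In females Acsl1 was at 918 to 1527 CPM in the controls, 1094 to 1538 CPM at 0.1 mg/kg and 1124 to 2314 CPM at 0.5 mg/kg. These ranges overlapped. On the less abundant probe, females at 0.5 mg/kg, at 129 to 169 CPM, were all above the controls, at 71.2 to 113 CPM (0.75 ± 0.22, adjusted p = 0.518). The DESeq2 call in that group came from this probe, since the abundant one had an adjusted p of 0.438 in DESeq2. At 5 mg/kg the females were at 2424, 2592, 2867 and 3450.1 CPM, above all other females. The log2 fold change was 1.12 ± 0.20 (SE; adjusted p = 0.00017), and the less abundant probe gave 1.43 ± 0.22 (adjusted p = 1.4e-05). The difference between the sexes at 5 mg/kg was 0.21 ± 0.28 (adjusted p = 0.919). The step from 0.5 to 5 mg/kg in females was 0.75 ± 0.21 (adjusted p = 0.0697), and this call was lost when any of 5 of the 8 mice was left out (replicates 1 and 3 at 5 mg/kg, 1, 3 and 4 at 0.5 mg/kg), with adjusted p-values of 0.163 to 0.373.

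Acsl5, a synthetase of mitochondria and endoplasmic reticulum, rose at the highest dose. Male controls were at 281, 385, 419, 513 and 531 CPM and males at 5 mg/kg at 949, 1123, 1165 and 1273 CPM. The groups did not overlap, and the log2 fold change was 1.41 ± 0.28 (SE; adjusted p = 0.00054). Males at 0.5 mg/kg were at 315 to 811 CPM, with 0.33 ± 0.26 (adjusted p = 0.815), and the step from there to 5 mg/kg was 1.08 ± 0.28 (adjusted p = 0.016). Without the males under 5000000 counts that step was 0.83, with an adjusted p of 0.206.

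Female controls had 449.9, 485, 527, 667 and 914 CPM of Acsl5, and females at 5 mg/kg had 902, 1059, 1075 and 1416 CPM. The highest control lay above the lowest treated female. A log2 fold change of 0.87 ± 0.28 (SE) had an adjusted p of 0.0776, which became 0.147 in a robust fit and 0.108 to 0.29 when any of 7 of the 9 mice was left out, the exceptions being replicate 4 of the controls and replicate 3 at 5 mg/kg. The pattern most like that of Acsl5 over the 37 mice was that of Elovl5, a fatty acid elongase (Pearson r = 0.91), followed by Dbi, the acyl-CoA binding protein (0.873).

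Acsl3 and Acsl4 were near the limit of detection. Acsl3, a synthetase of endoplasmic reticulum and lipid droplets, had 1752 counts in all on probe 73569, and its second probe had 32 counts and was at 0 in 31 mice. Females at 5 mg/kg had 5.61, 11.04, 11.1 and 17.2 CPM of Acsl3 against 1.99, 2.08, 2.56, 4.40 and 4.62 CPM in the controls, which did not overlap, but the log2 fold change of 1.84 ± 0.88 had an adjusted p of 0.373, or 0.0208 with females fitted apart. Males at 5 mg/kg spanned 0.236 to 10.4 CPM, which overlapped their controls (0.130 to 3.12 CPM). Acsl4, which prefers arachidonic acid, had 111 counts over the 37 mice and was at 0 in 27 of them. Its highest level was 2.32 CPM, and no fold change is given for it.

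Acsm1, a mitochondrial synthetase for medium-chain acids, was the gene of the 10 that fell at 5 mg/kg against vehicle in males. Male controls were at 101, 112, 121, 131 and 134 CPM and males at 5 mg/kg at 16.9, 55.2, 85.6 and 92.2 CPM. All treated males were below all controls, as for 4.8% of all probes, and Acsm1 fell by 0.93 on the log2 scale (SE 0.25; adjusted p = 0.0142). The lowest value came from replicate 3, the mouse with the fewest counts of all, and rested on 45 counts. Without the males under 5000000 counts, which left only replicates 2 and 4 at 5 mg/kg, the log2 fold change was -0.47, with an adjusted p of 0.166. Without replicate 3 at 5 mg/kg Acsm1 fell by 0.62, with an adjusted p of 0.0599. The step from 0.5 to 5 mg/kg was -0.72 ± 0.25 (adjusted p = 0.0844), and it was -0.42 without replicate 3 at 5 mg/kg (adjusted p = 0.251). It also missed the threshold without replicate 1 at 5 mg/kg or replicate 1 or 4 at 0.5 mg/kg (adjusted p-values of 0.134 to 0.137).

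Females had 79.2 to 108 CPM of Acsm1 in the controls and 66.3, 71.9, 74.2 and 90.6 CPM at 5 mg/kg, with a log2 fold change of -0.34 ± 0.25 (adjusted p = 0.761). The lower doses left Acsm1 between 78.4 and 156 CPM in males and 89.0 and 134 CPM in females, with no adjusted p under 0.10. Acsm1 and its relative Acsm3 lie close together on chromosome 7 (119607026 to 119662515 and 119760923 to 119787513, both plus strand).

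Acsm3, another mitochondrial medium-chain synthetase, had log2 changes of opposite sign in the sexes. Males at 5 mg/kg had 50.8, 52.1, 54.8 and 63.0 CPM, within the lower part of the control range of 54.2 to 101 CPM or just below it (-0.42 ± 0.24, adjusted p = 0.291). Females at 5 mg/kg had 69.7, 79.8, 106 and 109 CPM against 41.9 to 76.0 CPM in the controls (0.69 ± 0.24, adjusted p = 0.112). Males less females, the responses differed by -1.12 ± 0.34, with an adjusted p of 0.179. From 0.5 to 5 mg/kg, males fell by 0.67 (SE 0.24; adjusted p = 0.097). The call was lost in 5 alternatives, with DESeq2's size factors among them (adjusted p = 0.117), and when any of 5 of the 9 males was left out (replicates 1 and 4 at 0.5 mg/kg, 1, 3 and 4 at 5 mg/kg), with adjusted p-values of 0.103 to 0.212. The female value at 5 mg/kg passed the threshold in 8 alternatives, with an adjusted p of 0.0396 in DESeq2 and 0.018 when females were fitted apart. It also passed without replicate 1 of the controls (0.0544) or replicate 1 at 5 mg/kg (0.0937).

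Of 16 other acyl-CoA synthetases, some of them outside the Acsl, Acsm and Slc27 families, 12 were tested. At 5 mg/kg their median log2 fold change was 0.03 in males and -0.27 in females. In males 3 rose (Acss2, Acss3 and Acsf2) and 2 fell (Slc27a5 and Acsl6), and in females 1 rose (Acsf2) and 1 fell (Slc27a5). At 0.5 mg/kg, Acss3 rose in males. For this list and the next lists the most abundant probe of each gene was counted. Of all 18570 probes tested, 782 rose and 1577 fell in males at 5 mg/kg, with a median log2 fold change of -0.12. In females at that dose 419 rose and 420 fell, with a median of -0.0094. At 0.5 mg/kg, 71 rose and 45 fell in males, and 20 rose and 1 fell in females. Acsl6 was at 0 in all 4 males at 5 mg/kg, against 2.01 ± 1.33 CPM (SD, n = 5) in the male controls. Slc27a5, the liver transport protein that also activates bile acids, changed by -0.97 in males and -0.71 in females (adjusted p-values of 0.00011 and 0.0082). Acsf2, a mitochondrial synthetase for medium chains, rose by 0.79 in males and 1.57 in females (adjusted p-values of 0.0163 and 2.8e-06). Acss2, which makes acetyl-CoA in cytosol and nucleus, rose by 1.86 in males (adjusted p = 0.0142), and Acss3, a mitochondrial short-chain synthetase, by 1.73 in males (adjusted p = 0.00043) against -0.23 in females (adjusted p = 1).

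Among 15 genes of fatty acid uptake, lipolysis and acyl-CoA binding, 5 rose and 3 fell in males at 5 mg/kg, and 7 rose and 1 fell in females. Their median log2 fold change was -0.04 in males and 0.89 in females. In each sex, 2 of them rose at 0.5 mg/kg. Fabp1, the liver fatty acid binding protein, rose by 1.65 in males and 1.77 in females (adjusted p-values of 1.9e-08 and 4.8e-09), and was called at 0.5 mg/kg in both sexes. Dbi rose by 1.12 in males and 1.01 in females. Lpl, lipoprotein lipase, rose by 3.33 and 3.64, and Fabp4, a binding protein of fat cells and macrophages, rose by 3.37 and 2.72, in males and females in that order, with the adipocyte and macrophage markers as given beside Cd36. Fabp5 rose in females (2.66, adjusted p = 0.00037) and had 1.18 in males (adjusted p = 0.13). Scarb1, the receptor for high-density lipoprotein, fell by 0.99 in males (adjusted p = 0.0275). The others that fell, named after their values were seen, were Lipc, hepatic lipase, in both sexes and Acbd3 in males.

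Acyl-CoA goes on to oxidation, hydrolysis or glycerolipid synthesis, and of 26 genes of these fates 17 rose and 2 fell in males at 5 mg/kg, and 16 rose and 1 fell in females. Their median log2 fold change was 1.45 in males and 1.28 in females. The number that rose at 0.5 mg/kg was 12 in males and 5 in females. Those that fell, named after their values were seen, were Glyat, which joins acyl groups to glycine, in both sexes and Dgat2, an enzyme of triglyceride synthesis, in males. Ehhadh, the bifunctional enzyme of peroxisomal β-oxidation, rose by 5.51 in males and 5.03 in females, and Acot1, a cytosolic thioesterase that splits acyl-CoA, by 4.78 and 4.80. Acadm, the medium-chain dehydrogenase of mitochondria, rose by 1.46 and 1.32. Acaa1b, the peroxisomal thiolase, rose by 3.38 and 3.48, and Acot2, a mitochondrial thioesterase, by 5.72 and 5.04. Hadhb, a subunit of the mitochondrial trifunctional protein, rose by 1.84 and 1.67. Acot1 and Acot2, and Acaa1b and its sister gene Acaa1a, are close in sequence, and reads shared between such copies could not be told apart from the table.

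**Figure D4:**
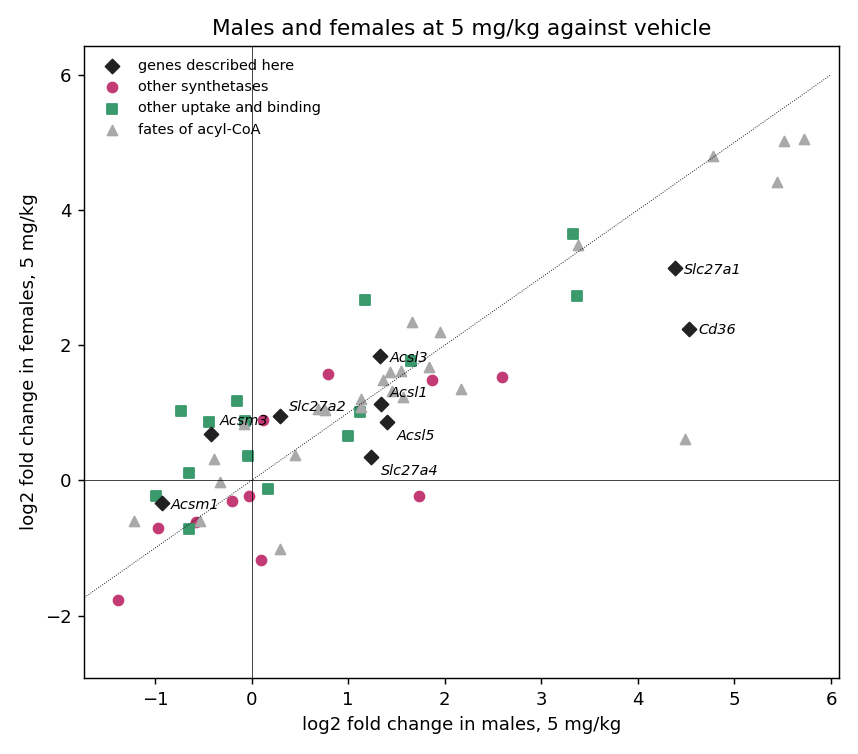
Log2 fold change at 5 mg/kg against vehicle in males (horizontal) and females (vertical) for 9 of the genes described here (black diamonds, named), the other synthetases (pink circles), the uptake and binding genes (green squares) and the genes of acyl-CoA fates (grey triangles). Acsl4, at 0 in most mice, and Acsl6, at 0 in all males at 5 mg/kg, are left out. The dotted line marks equal change. Cd36 lies at 4.53 and 2.25 and Slc27a1 at 4.38 and 3.14, below the line, and Acsm3 at -0.42 and 0.69 above it.

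The genes with patterns most like those of the others over the 37 mice were read in the same way. Cd36 was most like Aldh3a2, a fatty aldehyde dehydrogenase (Pearson r = 0.889), and Decr1, an enzyme of mitochondrial β-oxidation (0.876). Slc27a1 was most like Hsd17b11 (0.934) and Ehhadh (0.915), and Acsl1 like Decr1 (0.871) and Abcd3, a peroxisomal acyl-CoA transporter (0.859). Slc27a4 was most like Dab1 (0.857) and Mgll, monoglyceride lipase (0.845). Acsm3 was most like Abcg8, a sterol transporter (0.752), and Fam107b (0.73), and Acsl3 like Gm4952 (0.69). Acsm1 was most like Sec14l4 (0.857) and Slc31a1, a copper transporter (0.854). These values describe points that share their libraries and doses, and carry no test.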

How the data were processed

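Liver RNA of 37 mice was measured with TempO-Seq. The authors deposited 1 table of raw counts of reads per probe, without normalization. Per the submitters' processing notes, reads were handled with bcl2fastq (2.17.1.14) and Bowtie, and the genome build and annotation behind the probes are not given in the sources used here. The table held 0 columns of other series.

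Groups were taken from the sex and dose in the labels. Each mouse was 1 replicate, numbered in accession order. Probes passing edgeR's filterByExpr were scaled by TMM and fitted with edgeR's quasi-likelihood test (edgeR 4.0.16, limma 3.58.1, R 4.3.3) with 1 term per group over all 37 mice, and p-values were adjusted by Benjamini-Hochberg over 18570 probes, with 0.10 as the threshold. DESeq2 1.42.0 was an alternative, beside other scalings, filters, thresholds, depths and left-out mice. The edgeR fit was also run on simulated counts for the comparison of males at the highest dose with vehicle males. These counts were drawn with edgeR's own fitted dispersions, so they cannot show whether its model suits the real counts.

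A gene's most abundant probe is the one with the highest total count. All 10 genes are named. Of the other pathway lists, up to 8 genes called at 5 mg/kg with the smallest adjusted p are named, and for each of the 10 genes the 2 probes of other genes with the highest Pearson r of log2 CPM (prior count 2). These genes and lists were chosen with earlier results of these data known. Total counts of 2101495 to 13878254 limit precision most in the 4 males under 5000000. The labels do not say whether mice shared a litter or cage, and each was taken as independent. Sequences of the probes and proteins were not used here.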

Additional observations from a re-analysis of the deposited data

Results flagged for a closer look

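In 78 groups of 4 or 5 mice with any count, over the most abundant probe of each of the 10 genes, 5 held a mouse far from the rest by Dixon's criterion, and chance flags about 1 in 20 groups. For Acsl4 these were replicate 3 of the female controls (0.281 CPM, with the other 4 at 0), replicate 4 of the male controls (1.46 CPM, with the next at 0.120) and replicate 2 of the males at 5 mg/kg (2.32 CPM, with the other 3 at 0), all at levels of a few counts. For Acsm3 it was replicate 1 of the males at 0.5 mg/kg (131 CPM, with the next at 80.4). For Slc27a4 it was replicate 1 of the females at 5 mg/kg, the lowest of its group (118 CPM, with the next at 141). The response of Slc27a4 to 5 mg/kg differed between the sexes by 0.90 on the log2 scale (edgeR, adjusted p = 0.0626), and sex cannot be told apart from lactation, age and number of doses.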

How the results depend on the processing

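No paired analysis was possible because the labels give each mouse only an animal number of its own. The number of the 10 genes called changed by more than 1.5 times as follows. Without a filter on low counts, 1 gene was called in males at 0.1 mg/kg. With DESeq2, 1 gene was called in males at 0.1 mg/kg and 1 in females at 0.5 mg/kg. It called 19 and 76 of all probes there, in that order. With each sex fitted apart, 8 genes were called in females at 5 mg/kg, 3 between 0.5 and 5 mg/kg in males and 5 in females, and the comparisons between the sexes were not run. Without the males under 5000000 counts, 2 were called between 0.5 and 5 mg/kg in males. At an adjusted p under 0.05, 3 were called over that step in males, 1 in females and 0 for the difference between the sexes at 5 mg/kg. For that difference, DESeq2's size factors, DESeq2 and summed probes each gave 2. Over all probes, the difference was called for 117 in the main fit, 99 with DESeq2's size factors and 250 with DESeq2. Leaving out 1 mouse at a time gave 3 to 6 genes over the step from 0.5 to 5 mg/kg in males, 1 to 2 in females and 0 to 2 for the difference between the sexes. For the other settings the share of all probes called is not given here, so their counts are no result about the 10 genes. The cause of these changes was not tested.

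Changes of sign befell uncalled log2 fold changes only. With counts thinned to the smallest total, Cd36 (-0.0281), Acsl5 (-0.00515) and Acsm3 (-0.0243) turned in males at 0.1 mg/kg, and Slc27a1 (-0.0227) and Acsm1 (-0.00704) in females at 0.1 mg/kg. Without the males under 5000000 counts, Acsl3 turned to 0.47 between 0.5 and 5 mg/kg in males and to 0.14 for the difference between the sexes. With 1 mouse left out, in males at 0.1 mg/kg Acsl3 ran from -0.17 to 0.80, Acsl5 from -0.24 to 0.20 and Acsm3 from -0.13 to 0.18. Slc27a2 ran from -0.10 to 0.27 in males and -0.14 to 0.26 in females at 0.5 mg/kg, from -0.0125 to 0.39 between 0.5 and 5 mg/kg in males, and from -0.10 to 0.24 between vehicle males and females. In females at 0.1 mg/kg Slc27a1 ran from -0.0474 to 0.27, Acsl1 from -0.0555 to 0.11 and Acsm1 from -0.0280 to 0.0779, and Acsl3 ran from -1.15 to 0.24 between 0.5 and 5 mg/kg in males. Of the other single-gene values, 744 kept their direction and side of the threshold, 23 passed it and 15 no longer did, and with 1 mouse left out these were 851, 5 and 33. In females at 0.5 mg/kg, DESeq2 called 76 of all probes, 68.4% of them raised, where edgeR called 21, 95.2% of them raised.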
